A study of Capra hircus with 11 samples.

Results

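Goat ear fibroblasts kept for 8 days in an induction medium were compared, gene by gene, with the same kind of cell before induction. CPM is a gene's count of UMIs (unique molecular identifiers, 1 per captured transcript) scaled to the same total in each table, and a gene was taken when it reached 10 CPM on day 8 or day 0, which 9317 of the 16015 gene rows listed in either table did. BFRTV8d is labelled as an induced mammary epithelial cell population, taken on day 8 in BFRTV induction medium, and BFRTV0d as ear fibroblasts on day 0, in the fibroblast medium. Both groups were grown on Matrigel-coated plastic and brought into suspension with trypsin. The labels give 2 samples to BFRTV8d and 3 to BFRTV0d out of 11 samples in 5 groups, whereas the design text gives 3 for BFRTV8d. What the letters of the medium stand for is not used here. Each group was deposited as 1 pooled table, whose cell names carry no sample, so there was no replicate in either group. Every difference is therefore between 2 tables, no test was possible, and an interval after a fold is a 95% interval for counting error only.

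Fibroblasts build the collagen-rich matrix of connective tissue, move as single spindle-shaped cells and are held by focal adhesions. Epithelial cells of the mammary gland form sheets joined by desmosomes and tight junctions, with an apical side that secretes milk proteins, milk fat and fluid and a basal side fixed to a laminin sheet by hemidesmosomes. Luminal cells carry keratins such as KRT7, KRT8, KRT18 and KRT19 and line the ducts and alveoli, and the basal cells around them carry KRT5, KRT14 and TP63.

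The BFRTV8d table held 103337253 UMIs in 10152 barcodes, with a median of 9089 UMIs and 2886.5 genes, and the BFRTV0d table held 117500853 UMIs in 10670 barcodes, with a median of 10070 UMIs and 3305 genes. The tables shared 147 barcodes, 1.45% of those of BFRTV8d and 1.38% of those of BFRTV0d. In sums over a whole table, fewer cells of a type and less RNA per cell cannot be told apart. The labels were therefore checked cell by cell after every barcode had been thinned to 3000 UMIs. A cell was called an epithelial-marker cell when it held at least 2 UMIs of 19 epithelial genes (keratins and junction genes) and more of these than of the fibroblast genes (mainly collagens), and a fibroblast-marker cell in the opposite case. By this rule 96.4% of BFRTV8d cells were epithelial-marker cells (9777 cells) and 3.55% were fibroblast-marker cells (360 cells). In BFRTV0d, 6.83% were epithelial-marker cells (729 cells, 95% exact interval 6.36% to 7.33%) and 93.1% were fibroblast-marker cells (9935 cells). The day-0 fibroblasts thus contained cells with epithelial markers, with a median of 16372 UMIs against 9905 UMIs in the fibroblast-marker cells around them. At least 2 UMIs of both gene sets were found in 1574 cells of BFRTV8d and 1229 cells of BFRTV0d. No doublet caller was run, and the part of doublets and of free RNA in these cells was not tested.

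Markers of endothelial and immune cells were low in both tables. The 6 endothelial markers listed in either table summed to 3.73 CPM in BFRTV8d and 34.8 CPM in BFRTV0d, of which ERG made up 0.832 and 31.5 CPM, and PECAM1, the defining surface marker, was not listed in BFRTV8d and stood at 1.91 CPM in BFRTV0d. The 10 immune markers summed to 24.2 CPM in BFRTV8d and 38.9 CPM in BFRTV0d, nearly all of it CD14 at 21.4 and 29.2 CPM. Of the T cell marker CD3E and the macrophage receptor CSF1R neither exceeded 1 CPM in either table. Other marker lists were not all low. Keratinocyte and skin appendage markers summed to 752 CPM in BFRTV8d and 238 CPM in BFRTV0d, most of it KRT6A (554 and 94.7 CPM) and KRT10 (112 and 126 CPM). The sums were 94.4 and 179 CPM for pericyte and smooth muscle markers, 112 and 161 CPM for neuronal markers and 39.2 and 81.9 CPM for Schwann cell and melanocyte markers. Skeletal muscle markers summed to 41.1 and 2.93 CPM, of which CKM, the muscle creatine kinase, made up 36.1 and 0.102 CPM. The part of such cells in the results was not tested.

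A fold of 4 or more in favour of BFRTV8d was found for 957 of the 9317 genes (10.3%), and 914 genes (9.81%) were lower by the same limit. At the 2-fold limit used below to describe gene lists, 1835 genes were higher (19.7%) and 2608 were lower (28.0%), while 4874 genes lay within 2-fold. The median log2 fold of all genes was -0.29, with quartiles at -1.12 and 0.68, and list medians over whole tables should be read against it. In sums over epithelial-marker cells alone, without the genes that picked them, the median of all genes was -0.08. There 18.6% of genes were at least 2-fold higher and 18.0% lower. List medians and counts within epithelial-marker cells should be read against those values. TMM and median-of-ratios factors moved the median of all genes up by 0.29 and 0.30 on the log2 scale. They moved the share of 4-fold genes that were higher to 60.4% and 60.8%, from 51.1% under CPM scaling, and it was 59.2% when only epithelial-marker cells of both tables were summed.

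The gains and losses of transcripts were concentrated in different kinds of genes. Genes higher in BFRTV8d gained 343586 CPM in all, and SPP1 alone, which encodes osteopontin, a phosphoprotein secreted into milk and bone matrix, took 5.00% of that gain. SPP1 stood at 17305 CPM in BFRTV8d and 129 CPM in BFRTV0d (134-fold higher, 132 to 136). S100A2, a calcium-binding protein of basal epithelium, stood at 19427 CPM in BFRTV8d and 3276 CPM in BFRTV0d (5.93-fold higher). The thymosin TMSB4X, which sequesters actin monomers, stood at 38983 and 24946 CPM (1.56-fold higher). Together the 5 genes with the largest gains made up 17.6% of all the gain and the 20 largest made up 33.7%. The losses were spread more widely, with 9.16% of them in 5 genes and 19.99% in 20 genes.

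Among the 20 largest gains were the interferon-induced IFI6 at 6707 CPM in BFRTV8d and 98.2 CPM in BFRTV0d (68.3-fold higher), and S100A8, a subunit of the antimicrobial protein calprotectin, at 3822 and 32.9 CPM (116-fold higher). They also included genes without a name of their own. LOC102174170, which the RefSeq table lists with the synonym GSTA3, a glutathione transferase, stood at 3640 CPM in BFRTV8d and 0.162 CPM in BFRTV0d, 22510-fold higher with an interval of 14414 to 37389 that reflects the few UMIs on day 0. LOC102179515, which lies between KRT36 and KRT19 in the keratin cluster, stood at 3502 and 7.66 CPM (457-fold higher). LOC102169149, between S100A9 and S100A8, stood at 3608 and 35.2 CPM (102-fold higher), and LOC106501751, between IFITM5 and B4GALNT4, at 2452 and 9.37 CPM (262-fold higher). Neighbours named here and below are the nearest genes with a name of their own, and LOC entries that may lie between were passed over. LOC102179515, LOC102169149 and LOC106501751 have genes of a larger family among these neighbours. For all of these entries reads shared with near-identical copies could not be checked.

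**Figure D1:**
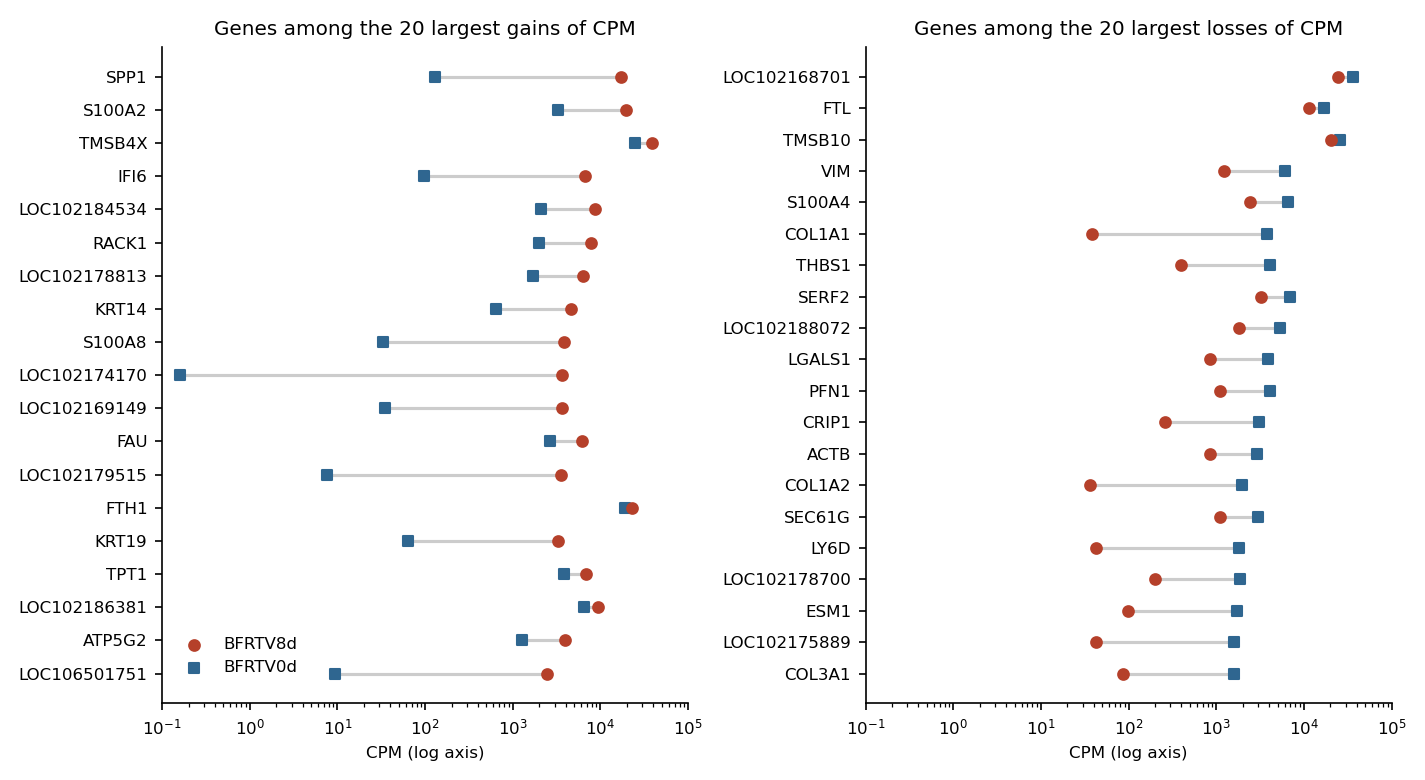
CPM (horizontal log axis) in BFRTV8d (red circles) and BFRTV0d (blue squares) of genes among the 20 largest gains (left panel) and the 20 largest losses (right panel), ordered by the size of the change with the largest at the top. SPP1 leads the gains, at 17305 CPM in BFRTV8d and 129 CPM in BFRTV0d, and LOC102168701 leads the losses, at 24367 and 36449 CPM.

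The largest losses belonged to abundant genes that changed by small folds and to the fibroblast cytoskeleton and matrix. LOC102168701, which lies between ZC3H10 and PA2G4, stood at 24367 CPM in BFRTV8d and 36449 CPM in BFRTV0d (1.496-fold lower). The RefSeq table lists it as a long noncoding RNA, but which transcript its reads came from was not tested. VIM, the intermediate filament protein of mesenchymal cells, stood at 1212 and 6145 CPM (5.07-fold lower). LGALS1, which encodes galectin-1, stood at 845 and 3896 CPM (4.61-fold lower), and CRIP1, a small LIM protein, at 259 and 3037 CPM (11.7-fold lower). LY6D, a surface protein best known from keratinocytes and lymphoid precursors, stood at 42.0 and 1826 CPM (43.5-fold lower), against the direction of the other epithelial surface genes described below.

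Nearly all measured genes of the apical face, tight junctions and desmosomes were higher. Of 13 measured tight junction genes 12 were past 2-fold in the higher direction and none in the lower, with a median log2 fold of 3.68. The claudins CLDN10, CLDN7 and CLDN1, which line the paracellular seal, stood at 81.7, 37.1 and 182 CPM in BFRTV8d, against 0.187, 0.323 and 6.40 CPM in BFRTV0d (437-fold, 115-fold and 28.5-fold higher). TJP3, a scaffold of the same junction, stood at 18.7 CPM in BFRTV8d and 0.264 CPM in BFRTV0d (70.9-fold higher). The 6 measured desmosome genes were all higher by 2-fold or more (median 2.33), from JUP at 142 and 36.7 CPM (3.85-fold) to PERP at 1018 and 95.3 CPM (10.7-fold). Of 21 apical polarity and surface genes 20 were higher (median 3.00). Among them was the membrane protease TMPRSS2, at 14.6 CPM in BFRTV8d and not listed in BFRTV0d (at least 156-fold higher). A fold written as "at least" takes an unlisted gene at 11 counts and is not a strict limit. Within epithelial-marker cells, with the genes that picked the cells left out, the medians of the tight junction, desmosome and apical lists were 1.12, 0.52 and 0.87.

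Adherens junction genes were mixed, with 5 of 13 higher and 3 lower (median 0.51). CDH3, or P-cadherin, stood at 66.4 CPM in BFRTV8d and 5.95 CPM in BFRTV0d (11.2-fold higher), whereas the mesenchymal cadherins CDH11 and CDH2 stood at 11.2 and 2.97 CPM in BFRTV8d, against 227 and 55.5 CPM in BFRTV0d (20.3-fold and 18.7-fold lower). Of 6 hemidesmosome genes 3 were higher, namely ITGA6, ITGB4 and COL17A1 (4.65-fold, 3.82-fold and 5.09-fold), and PLEC, the plectin linker, stood at 38.1 CPM in BFRTV8d and 417 CPM in BFRTV0d (10.95-fold lower).

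Epithelial transcription and splicing factors followed the junction genes, with 19 of 25 higher and 1 lower (median 3.70, and 1.32 within epithelial-marker cells). EHF, an ETS factor of glandular epithelium, stood at 488 CPM in BFRTV8d and 5.92 CPM in BFRTV0d (82.3-fold higher). ELF5, the ETS factor of alveolar mammary cells, stood at 38.9 and 0.230 CPM (169-fold higher), and FOXA1, the pioneer factor of hormone-responsive luminal cells, at 45.0 and 0.834 CPM (53.9-fold higher). TP63, the master factor of basal cells, stood at 133 and 6.53 CPM (20.4-fold higher), so factors of both mammary lineages were higher in the same table. SOX9, linked to mammary progenitors, had a level next to that of EHF, at 425 CPM in BFRTV8d and 54.2 CPM in BFRTV0d (7.85-fold higher). TBX3 was the exception, at 19.8 and 52.8 CPM (2.67-fold lower), but its log2 fold was 1.14 within epithelial-marker cells.

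Mesenchymal transcription factors moved in the opposite direction, with 12 of 19 lower and 3 higher (median -1.97). Within epithelial-marker cells 6 of 14 were lower and 3 higher, and the median was -0.19. MEOX2, ZEB2, SNAI1 and TWIST2 stood at 0.677, 2.10, 2.72 and 7.68 CPM in BFRTV8d, against 47.0, 76.4, 50.3 and 138 CPM in BFRTV0d, which is 69.4-fold, 36.4-fold, 18.5-fold and 18.0-fold lower. PRRX1, the most abundant of the list on day 0, kept 101 CPM in BFRTV8d against 913 CPM in BFRTV0d (9.04-fold lower). FOXC1 and OSR2 were among those that were higher (7.71-fold and 4.30-fold).

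**Figure D2:**
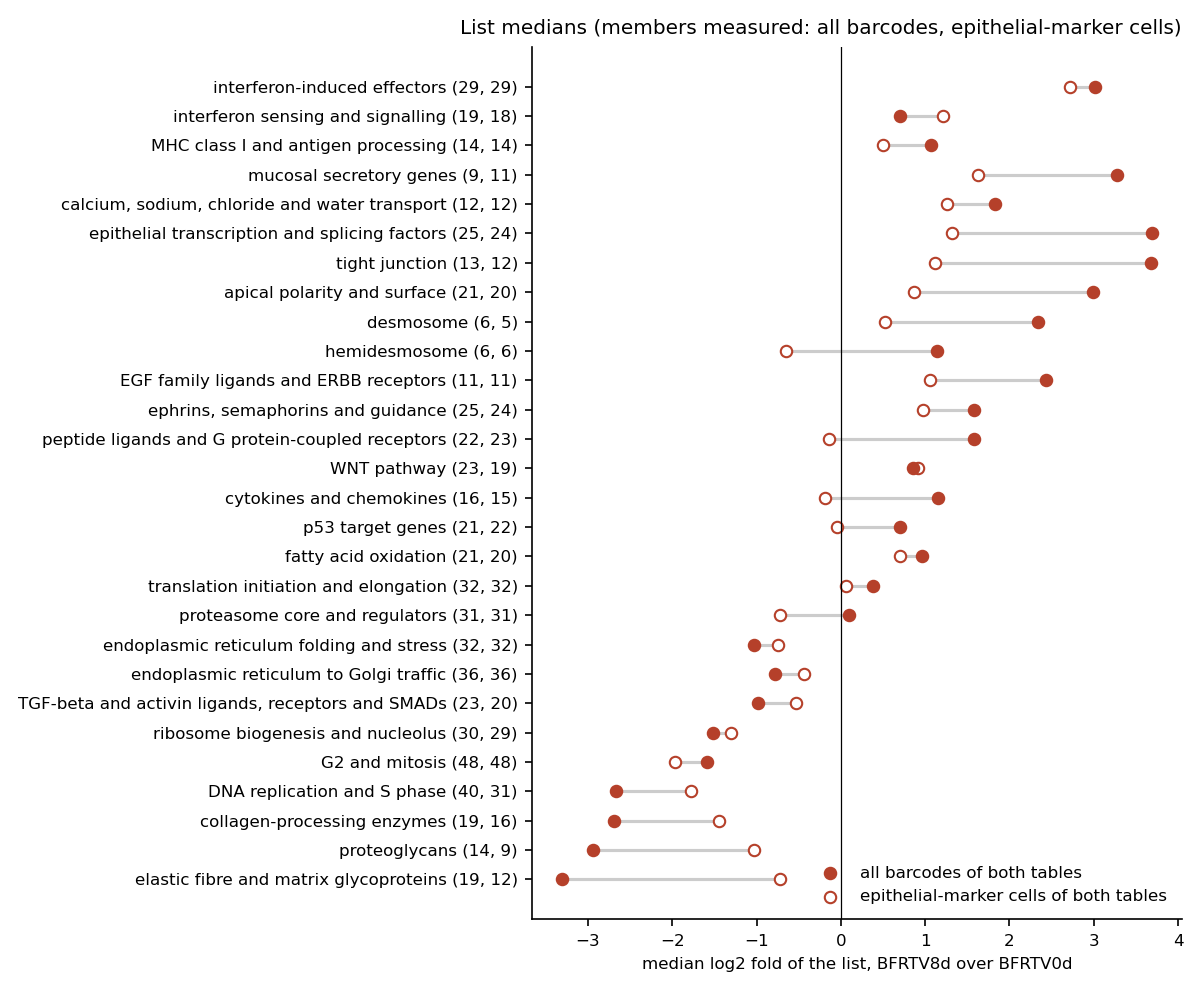
Median log2 fold of BFRTV8d over BFRTV0d (horizontal axis) of gene lists, over all barcodes (filled) and over epithelial-marker cells without the genes that picked them (open), with the members measured each way in brackets. The tight junction median is 3.68 over all barcodes and 1.12 within epithelial-marker cells, the interferon effector medians lie close together at 3.01 and 2.71, and the hemidesmosome median changes sign.

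The next comparison shows which of these differences were also present between epithelial-marker cells of the 2 tables. Summed over those cells alone, 650 of 8760 compared genes were higher and 448 lower by the 4-fold limit. Of 938 genes that were 4-fold higher in the whole tables and could be compared in both ways, 514 (54.8%) were also 4-fold higher there, 154 lay within 2-fold and 0 were 2-fold lower. That 0 was largely set in advance and is no sign of agreement. The epithelial-marker cells held 98880400 of the 103337253 UMIs of BFRTV8d, but 13840300 of the 117500853 UMIs of BFRTV0d. A level in those day-0 cells could therefore exceed the whole-table level by only a limited fold. Far fewer of the lower genes could be compared in both ways, 604 of 914, against 938 of 957 higher genes. The others were below 10 CPM in the epithelial-marker cells of both tables or had picked the cells. Of the 604 genes, 314 (52.0%) were also 4-fold lower there, 53 lay within 2-fold and 0 were 2-fold higher. The 2 percentages thus come from unequally filtered sets of genes. The pooled differences thus contained genes whose level differed little between the epithelial-marker cells of day 8 and of day 0.

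Basal epithelial genes were among these. KRT14 stood at 4850 CPM in epithelial-marker cells of BFRTV8d and 5081 CPM in those of BFRTV0d, and KRT5 at 2819 and 2243 CPM, although in the whole tables they were 7.26-fold and 9.45-fold higher. ITGB4, ITGA6 and COL17A1 stood at 194, 235 and 299 CPM in those cells of BFRTV8d, against 335, 334 and 418 CPM in those of BFRTV0d, so the direction of these hemidesmosome genes turned over. LAMB3 and LAMA3, chains of the laminin to which hemidesmosomes bind, stood at 59.0 and 69.0 CPM in those cells of BFRTV8d, against 499 and 305 CPM in those of BFRTV0d (8.46-fold and 4.42-fold lower). The simple-epithelium keratin KRT8 stood at 351 and 3670 CPM (10.4-fold lower), its partner KRT18 at 115 and 701 CPM (6.10-fold lower), and the stratified-epithelium protein SFN at 352 and 2521 CPM (7.17-fold lower). KRT8, KRT18, SFN, KRT5 and KRT14 are among the genes that defined the cells, so these values describe the cells and are not independent of the split.

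Another group of genes was higher in day-8 epithelial-marker cells than in day-0 ones. KRT19 stood at 3427 CPM in those of BFRTV8d and 499 CPM in those of BFRTV0d (6.87-fold higher), although it is also among the genes that defined the cells. Of genes that were not, EHF stood at 507 and 46.2 CPM (10.97-fold), CLDN10 at 85.1 and 1.52 CPM (56.1-fold) and the selenium-dependent peroxidase GPX2 at 1166 and 14.3 CPM (81.5-fold). SPP1 stood at 18015 and 101 CPM (178-fold higher), while the fibroblast-marker cells of BFRTV8d had 1483 CPM of it. PLIN2, the lipid-droplet coat protein, stood at 649 and 18.6 CPM (34.8-fold higher), and IDH1, the cytosolic isocitrate dehydrogenase that yields NADPH, at 888 and 50.7 CPM (17.5-fold higher).

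A further group was higher on day 8 in both marker classes. IFI6 stood at 6725 CPM in epithelial-marker and 6363 CPM in fibroblast-marker cells of BFRTV8d, against 244 and 78.5 CPM in the same classes of BFRTV0d. DHRS3, a retinaldehyde reductase induced by retinoic acid, stood at 1343 and 1372 CPM in BFRTV8d, against 13.3 and 1.06 CPM in BFRTV0d. EIF3E, a subunit of the translation initiation factor 3, stood at 705 and 575 CPM in BFRTV8d, against 181 and 94.5 CPM in BFRTV0d. For these 3 genes the fibroblast-marker cells of day 8 thus resembled their epithelial-marker neighbours more than the day-0 cells of their own class. PTGES, the prostaglandin E synthase, was higher in the fibroblast-marker cells, at 3462 CPM against 1133 CPM in the epithelial-marker cells of BFRTV8d, while the day-0 classes had 65.5 and 206 CPM.

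FTH1, the ferritin heavy chain that stores iron, set the day-8 fibroblast-marker cells apart. It stood at 146998 CPM in the fibroblast-marker cells of BFRTV8d and 20768 CPM in those of BFRTV0d, and at 17058 CPM in the epithelial-marker cells of BFRTV8d and 7909 CPM in those of BFRTV0d. In the whole tables FTH1 differed by 1.18-fold, at 22698 and 19243 CPM. The fibroblast-marker cells of BFRTV8d kept VIM at 6423 CPM, against 6309.8 CPM in those of BFRTV0d, whereas COL1A1 was at 674 CPM in them, against 4305 CPM in the day-0 class.

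**Figure D3:**
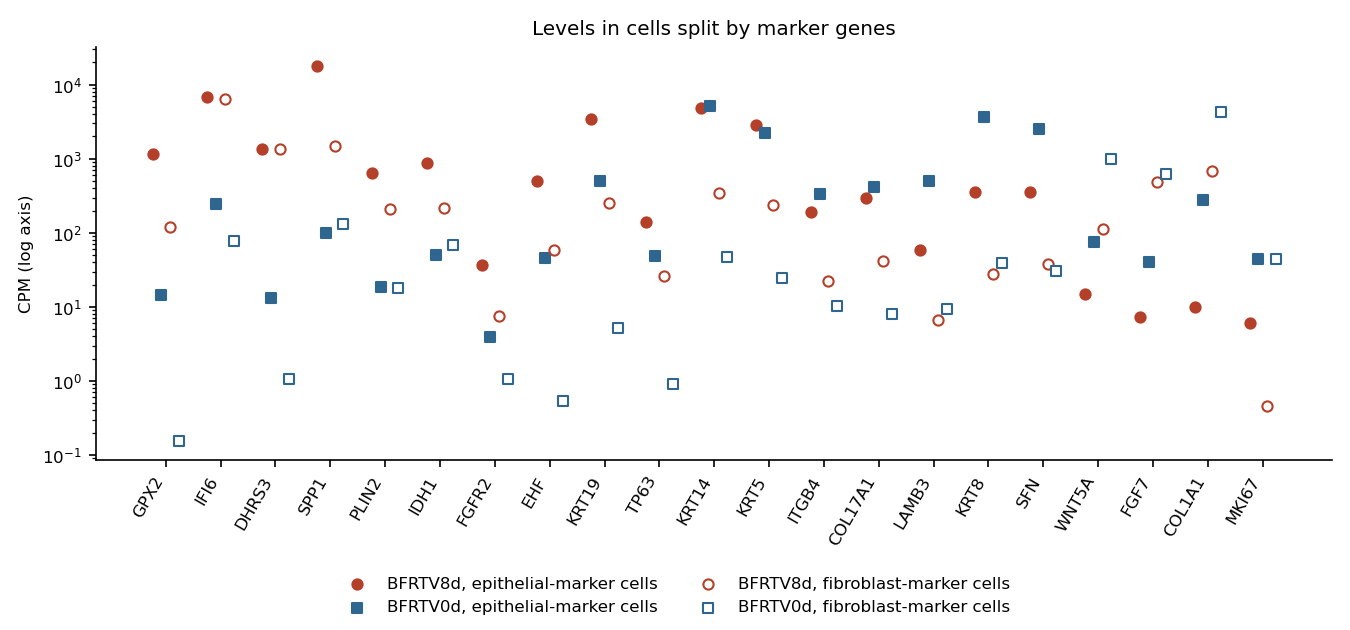
CPM (log axis) of selected genes in epithelial-marker (filled) and fibroblast-marker (open) cells of BFRTV8d (red circles) and BFRTV0d (blue squares). IFI6 and DHRS3 were about as high in both classes of BFRTV8d, KRT14 and KRT5 were about equal in the epithelial-marker cells of both tables, and KRT8, SFN and LAMB3 were lower in those of BFRTV8d.

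The extracellular matrix and the enzymes that build it were lower together. Of 10 measured fibrillar and fibril-associated collagens 9 were lower and none higher by 2-fold or more (median -3.78), and the list summed to 317 CPM in BFRTV8d and 8418 CPM in BFRTV0d. COL1A1 and COL1A2, the chains of type I collagen, stood at 38.3 and 36.1 CPM in BFRTV8d, against 3828 and 1962 CPM in BFRTV0d (99.9-fold and 54.4-fold lower). COL18A1, a basement membrane collagen, was the member of the other collagens that was higher, at 111 and 10.5 CPM (10.5-fold). Of 19 collagen-processing enzymes 18 were lower (median -2.69), and the median was -1.45 within epithelial-marker cells. SERPINH1, the collagen chaperone HSP47, stood at 69.5 CPM in BFRTV8d and 805 CPM in BFRTV0d (11.6-fold lower), PCOLCE2, an enhancer of procollagen cleavage, at 0.900 and 105 CPM (116-fold lower), and P4HA1, a prolyl hydroxylase, at 25.6 and 111 CPM (4.35-fold lower).

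Proteoglycans and elastic fibre genes were lower as well, with 11 of 14 and 14 of 19 at least 2-fold lower (medians -2.94 and -3.31). BGN, or biglycan, stood at 19.1 CPM in BFRTV8d and 824 CPM in BFRTV0d (43.2-fold lower), and ELN, which encodes elastin, at 0.242 and 44.1 CPM (182-fold lower). Against the list, EFEMP1, a fibulin, stood at 23.2 and 2.18 CPM (10.7-fold higher). The matrix proteases and inhibitors divided by member. PLAT, the tissue-type plasminogen activator, stood at 442 CPM in BFRTV8d and 13.5 CPM in BFRTV0d (32.8-fold higher). MMP7, the epithelial matrilysin, stood at 30.3 CPM in BFRTV8d and was not listed in BFRTV0d (at least 324-fold higher), and MMP13, a collagenase, was not listed in BFRTV8d and stood at 14.6 CPM in BFRTV0d (at least 137-fold lower).

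Integrins were divided, with 4 of 12 higher and 5 lower (median -0.35). ITGA5, the fibronectin receptor chain, stood at 11.3 CPM in BFRTV8d and 309 CPM in BFRTV0d (27.2-fold lower), and ITGB6, the epithelial chain that binds latent TGF-beta, at 56.2 and 2.09 CPM (26.8-fold higher). Of 24 actin and contractile genes 10 were lower and 1 higher (median -0.75). The single higher gene was MYLK, the myosin light chain kinase of smooth muscle and myoepithelium, at 160 and 5.56 CPM (28.9-fold), while TAGLN stood at 162 CPM in BFRTV8d and 1318 CPM in BFRTV0d (8.12-fold lower).

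The secretory pathway that carries matrix proteins was also lower in part. Of 32 genes of endoplasmic reticulum folding and stress 16 were at least 2-fold lower and 3 higher (median -1.02), and their sum was 7962 CPM in BFRTV8d and 12929 CPM in BFRTV0d. CRELD2 and MANF, secreted products of the unfolded protein response, stood at 10.3 and 143 CPM in BFRTV8d, against 137 and 835 CPM in BFRTV0d (13.3-fold and 5.86-fold lower). The lectin chaperone CALR stood at 219 and 893 CPM (4.07-fold lower). SSR4, a subunit of the complex at the translocation channel, was higher at 2734 and 662 CPM (4.13-fold), while SEC61G, a subunit of the channel itself, was lower at 1109 and 2962 CPM (2.67-fold). Of 36 genes of traffic between endoplasmic reticulum and Golgi 16 were lower and 1 higher (median -0.78). KDELR3, a retrieval receptor, stood at 70.5 and 852 CPM (12.1-fold lower), and SEC23A and SEC24D, coat proteins needed for procollagen export, at 14.3 and 13.6 CPM in BFRTV8d, against 86.9 and 90.1 CPM in BFRTV0d (6.08-fold and 6.64-fold lower).

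In the whole tables the medians of ribosome assembly genes and of translation factors had opposite signs. Of 30 ribosome biogenesis genes 22 were lower and none higher (median -1.51), with a sum of 1649 CPM in BFRTV8d and 3752 CPM in BFRTV0d. NHP2, a protein of the RNA particles that modify ribosomal RNA, stood at 33.6 and 353 CPM (10.5-fold lower), and PES1 and BOP1, partners in large subunit maturation, at 12.5 and 3.72 CPM in BFRTV8d, against 102 and 24.4 CPM in BFRTV0d (8.16-fold and 6.55-fold lower). Translation initiation and elongation factors had 10 of 32 genes higher and 4 lower (median 0.38) and summed to 20887 CPM in BFRTV8d and 15036 CPM in BFRTV0d. Within epithelial-marker cells 6 of 32 translation factors were higher and 6 lower (median 0.06), while ribosome biogenesis stayed at a median of -1.30.

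Within the translation factors the members divided. EIF3E and EIF3M, 2 subunits of initiation factor 3, stood at 699 and 531 CPM in BFRTV8d, against 105 and 101 CPM in BFRTV0d (6.68-fold and 5.25-fold higher), whereas EIF3B, the scaffold of the same complex, stood at 24.6 and 109 CPM (4.41-fold lower). EIF4A2 was higher at 457 and 103 CPM (4.45-fold), and EIF4G1, the scaffold it binds, was lower at 56.6 and 175 CPM (3.09-fold). EIF5A, the hypusinated elongation factor, stood at 436 and 1679 CPM (3.85-fold lower) and EEF1G at 3854 and 1620 CPM (2.38-fold higher). RACK1, a protein bound to the ribosome, and FAU, which encodes a ribosomal protein fused to a ubiquitin-like one, were among the 20 largest gains, at 7884 and 6181 CPM in BFRTV8d, against 2011 and 2640 CPM in BFRTV0d (3.92-fold and 2.34-fold higher). Other ribosomal protein genes were not analysed here.

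**Figure D4:**
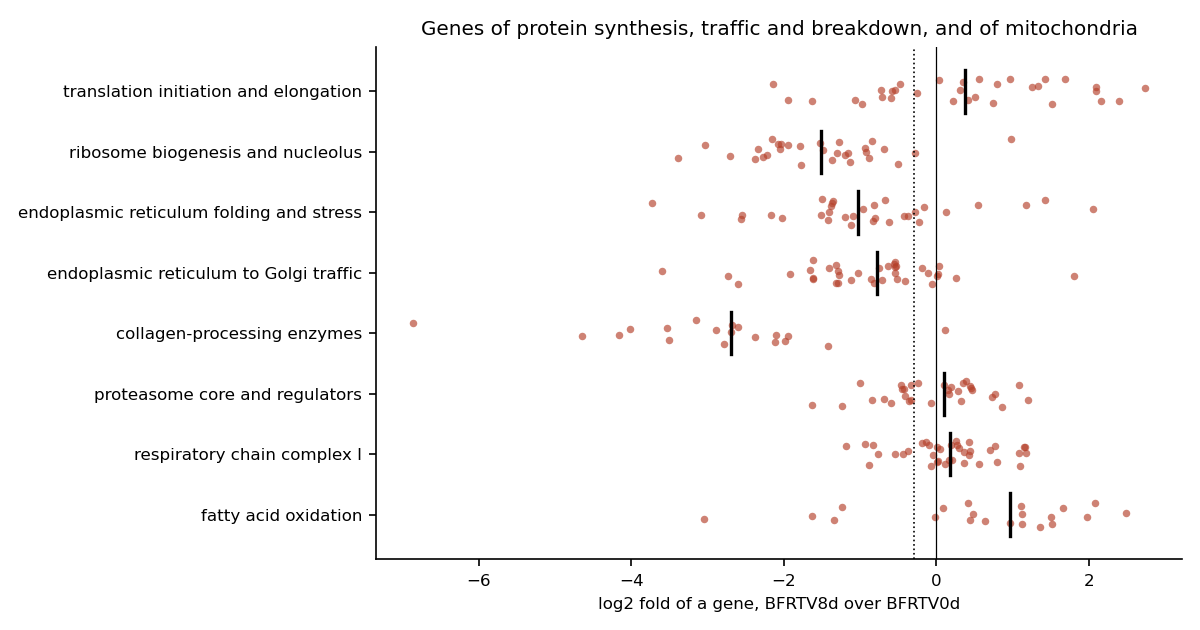
Log2 fold of BFRTV8d over BFRTV0d (horizontal axis) of each measured gene of protein synthesis, secretion, breakdown and mitochondria, 1 point per gene, with list medians as bars and the median of all genes, -0.29, as a dotted line. Ribosome biogenesis genes centre at -1.51, endoplasmic reticulum folding genes at -1.02 and translation factors at 0.38.

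The proteasome list was close to even, with 2 of 31 genes higher and 2 lower (median 0.10, and -0.72 within epithelial-marker cells), but the immunoproteasome subunits PSMB8 and PSMB9 stood at 150 and 59.1 CPM in BFRTV8d, against 21.3 and 4.29 CPM in BFRTV0d (7.02-fold and 13.8-fold higher). These subunits replace catalytic ones under interferon. On day 4 PSMB8 and PSMB9 already stood at 75.2 and 39.7 CPM. The interferon effectors had 25 of 29 genes higher and none lower (median 3.01, and 2.71 within epithelial-marker cells). MX2, a dynamin-like antiviral GTPase, stood at 121 CPM in BFRTV8d and 0.434 CPM in BFRTV0d (278-fold higher), and IFI44 at 52.0 and 0.460 CPM (113-fold higher). Sensors and signalling genes were less far apart, with 7 of 19 higher and none lower (median 0.70). The RNA sensor IFIH1, or MDA5, stood at 26.4 and 1.63 CPM (16.2-fold higher), and the receptor chain IFNGR1 at 23.6 and 3.37 CPM (7.01-fold higher). The MHC class I and antigen processing list, which holds PSMB8 and PSMB9, had 7 of 14 genes higher and 2 lower (median 1.07). Within epithelial-marker cells 2 of 14 were higher and 1 lower (median 0.50). Its most abundant member B2M, the light chain of MHC class I, stood at 2349 and 840 CPM (2.80-fold higher).

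The interferon effectors followed over the 3 days reached their high level after day 4. IFI6 stood at 98.2, 229 and 6707 CPM on days 0, 4 and 8, MX1 at 30.3, 16.4 and 258 CPM, and ISG15 at 25.99, 2.67 and 369.98 CPM. By contrast GPX2 (1.82, 217 and 1122 CPM) and DHRS3 (2.51, 681 and 1344 CPM) were both far above their day-0 level on day 4 and higher again on day 8. FTH1 was highest on day 4, at 19243, 97406 and 22698 CPM on days 0, 4 and 8, and so was IGF1, which encodes insulin-like growth factor 1, at 0.426, 114 and 8.82 CPM. The cytokine IL11 was low by day 4, at 799.6, 5.07 and 2.37 CPM, whereas COL1A1 was lower on each later day, at 3828, 524 and 38.3 CPM. ISG15, MX1 and IGF1 were named after their values had been seen.

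Cytokine genes were exchanged rather than moved in 1 direction, with 9 of 16 higher and 6 lower (median 1.15, but -0.19 within epithelial-marker cells). IL11, a cytokine linked to fibroblast activation, stood at 2.37 CPM in BFRTV8d and 799.6 CPM in BFRTV0d (337-fold lower), and LIF, of the same receptor family, at 15.3 and 199 CPM (13.05-fold lower). CCL28, a mucosal chemokine of the mammary gland, stood at 29.1 and 0.587 CPM (49.6-fold higher), and CXCL8, a neutrophil chemokine, at 2397 and 802 CPM (2.99-fold higher). Beside S100A8, its partner S100A9 stood at 772 and 25.8 CPM (29.9-fold higher). NOS2, the inducible nitric oxide synthase, stood at 27.0 CPM in BFRTV8d and was not listed in BFRTV0d (at least 289-fold higher).

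Milk and secretory genes formed an incomplete set. Of 8 measured milk protein and fat globule genes 6 were higher and 2 lower (median 5.96), and the sum of the list was set by SPP1. CSN3, the kappa casein that stabilises casein micelles, stood at 14.5 CPM in BFRTV8d and was not listed in BFRTV0d (at least 155-fold higher), and LTF, the iron-binding lactoferrin, stood at 30.7 and 0.128 CPM (241-fold higher). MFGE8 and FABP3 went the other way, at 36.9 and 5.30 CPM in BFRTV8d, against 135 and 19.4 CPM in BFRTV0d (3.67-fold and 3.66-fold lower). Within epithelial-marker cells 5 of 7 genes of this list were higher and none was 2-fold lower (median 4.25). The lactose synthesis list had 1 of 14 genes higher and 4 lower (median 0.30). The list of lactation hormone receptors and STAT5 had 4 of 11 genes higher and 3 lower (median -0.42, and 0.56 within epithelial-marker cells). PRLR, the prolactin receptor, stood at 12.5 CPM in BFRTV8d and was not listed in BFRTV0d (at least 134-fold higher), and IGF1R at 365 and 72.1 CPM (5.06-fold higher). SOCS3, of the same list, stood at 7.67 and 68.9 CPM (8.98-fold lower).

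Mucosal and transport genes were higher by larger folds than the lactose genes. Of 9 mucosal secretory genes 6 were higher and 1 lower (median 3.27), with the mucin-modifying enzyme GCNT3 at 77.2 CPM in BFRTV8d and 0.102 CPM in BFRTV0d (756-fold higher) and the antiprotease-like WFDC2 at 1043 and 115 CPM (9.05-fold higher). CREB3L1, a membrane-bound factor that drives collagen secretion, was the lower member, at 44.3 and 229 CPM (5.18-fold). ATP2C2, a calcium pump of the secretory pathway that is abundant in lactating gland, stood at 33.5 and 0.145 CPM (232-fold higher), and AQP3, a water and glycerol channel, at 17.1 and 0.196 CPM (87.4-fold higher). S100G, the calcium buffer calbindin, stood at 14.3 CPM in BFRTV8d and was not listed in BFRTV0d (at least 153-fold higher), but its thinned share was 20.6% of fibroblast-marker cells and 0.542% of epithelial-marker cells of BFRTV8d. S100G therefore did not follow the epithelial marker genes cell by cell.

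Lipid and energy metabolism differed in a few genes rather than as lists. Fatty acid synthesis and lipid droplet genes had a median of -0.15, which turned to 0.14 under TMM factors, with 5 of 19 higher and 3 lower, so no direction is given. Its droplet proteins PLIN2 and PLIN3 stood at 630.2 and 188 CPM in BFRTV8d, against 18.1 and 40.3 CPM in BFRTV0d (34.9-fold and 4.66-fold higher), and the desaturase FADS1 at 15.3 and 86.2 CPM (5.61-fold lower). Fatty acid oxidation had 10 of 21 genes higher and 4 lower (median 0.96). HADHB and ETFB, of the mitochondrial pathway, stood at 252 and 481 CPM in BFRTV8d, against 45.0 and 122 CPM in BFRTV0d (5.59-fold and 3.94-fold higher), while the isomerase ECI1 stood at 7.10 and 58.7 CPM (8.26-fold lower).

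In the tricarboxylic acid cycle 3 of 23 genes were higher and 1 lower (median 0.03). The 2 largest folds were of cytosolic enzymes, IDH1 at 859.8 CPM in BFRTV8d and 66.1 CPM in BFRTV0d (13.01-fold higher) and MDH1 at 462 and 50.1 CPM (9.23-fold higher). Glycolysis had 5 of 21 genes higher and 4 lower (median 0.15, but -0.72 within epithelial-marker cells). PKM and PFKP stood at 458 and 36.1 CPM in BFRTV8d, against 1334 and 101 CPM in BFRTV0d (2.91-fold and 2.80-fold lower), LDHB, the lactate dehydrogenase subunit of oxidative tissue, stood at 669 and 208 CPM (3.21-fold higher), and PDK4, which shuts pyruvate out of the cycle, stood at 10.7 CPM in BFRTV8d and was not listed in BFRTV0d (at least 114-fold higher). Complex I had 5 of 38 genes higher and 1 lower (median 0.18), all within 2.28-fold. ATP synthase had 3 of 16 higher and none lower (median 0.48, but -0.12 within epithelial-marker cells), led by ATP5G2, a c subunit, at 3896 and 1282 CPM (3.04-fold).

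Redox and stress genes were higher in part. Of 33 glutathione, thioredoxin and NRF2 target genes 11 were higher and 2 lower (median 0.42). GPX2 stood at 1122 and 1.82 CPM (616-fold higher), the microsomal glutathione transferase MGST2 at 289 and 9.71 CPM (29.8-fold higher) and TXNIP, which binds thioredoxin and restrains glucose uptake, at 289 and 8.65 CPM (33.5-fold higher), while GPX7, a peroxidase of the endoplasmic reticulum, stood at 3.65 and 66.2 CPM (18.2-fold lower). Iron storage, iron transport and metallothionein genes had 1 of 8 higher and 3 lower (median -0.27, which turned to 0.02 under TMM factors). The higher one was SLC39A8, a zinc and manganese importer, at 103 CPM in BFRTV8d and 4.31 CPM in BFRTV0d (23.8-fold). SLC39A14, TFRC and MT3 were 2.97-fold, 2.99-fold and 3.24-fold lower. Hypoxia-induced genes had 8 of 18 higher and 3 lower (median 0.88). DDIT4, an inhibitor of mTORC1, stood at 219 and 17.7 CPM (12.4-fold higher), but VEGFA, the angiogenic target of the same response, stood at 38.7 and 193 CPM (5.00-fold lower), with a log2 fold of 0.19 within epithelial-marker cells. Cytosolic chaperones had 6 of 28 genes higher and 4 lower (median 0.05, but -0.35 within epithelial-marker cells). HSPB8, a small heat shock protein, stood at 124 and 0.757 CPM (163-fold higher), whereas HSPB2, HSPB6 and CRYAB were 5.96-fold, 4.71-fold and 2.23-fold lower.

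Growth factor systems were exchanged between receptor types. In the FGF list 4 of 8 genes were higher and 3 lower (median 1.10). FGFR2, the receptor of epithelial cells, stood at 35.8 CPM in BFRTV8d and 1.40 CPM in BFRTV0d (25.7-fold higher), whereas FGFR1, the receptor of fibroblasts, stood at 28.0 and 222 CPM (7.91-fold lower). FGF7, the fibroblast ligand of an FGFR2 isoform, stood at 28.0 and 560.3 CPM (20.01-fold lower). Within fibroblast-marker cells FGF7 had a thinned share of 62.2% in BFRTV8d and 76.1% in BFRTV0d, and within epithelial-marker cells 1.197% and 9.33%. FGF7 was thus found mainly in fibroblast-marker cells in both tables.

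The EGF list had 8 of 11 genes higher and none lower (median 2.43). AREG, or amphiregulin, the ductal growth factor of the mammary gland, stood at 319.7 CPM in BFRTV8d and 21.1 CPM in BFRTV0d (15.1-fold higher), BTC at 20.03 and 0.630 CPM (31.8-fold higher) and the receptor ERBB3 at 21.2 and 0.749 CPM (28.3-fold higher). The PDGF, VEGF, HGF and neurotrophin list had 12 of 17 genes lower and 3 higher (median -2.32). Within epithelial-marker cells 6 of 14 were lower and 3 higher, and the median was -0.19. HGF, a mesenchymal ligand, stood at 0.571 and 13.2 CPM (23.2-fold lower), while its receptor MET stood at 65.8 and 18.4 CPM (3.58-fold higher).

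WNT genes had 11 of 23 members higher and 8 lower (median 0.86). WNT5A, a noncanonical ligand of mesenchyme, stood at 18.9 CPM in BFRTV8d and 887 CPM in BFRTV0d (46.8-fold lower), its receptor ROR2 at 1.62 and 10.9 CPM (6.72-fold lower), and the related receptor RYK at 28.0 and 129 CPM (4.62-fold lower). WNT7B, an epithelial ligand, stood at 17.8 and 1.10 CPM (16.2-fold higher), and SFRP1, a secreted antagonist, at 152 and 8.56 CPM (17.8-fold higher). In the TGF-beta and activin list 11 of 23 genes were lower and 4 higher (median -0.98). The inhibitory SMAD7, itself a target of the pathway, stood at 1.83 and 49.8 CPM (27.2-fold lower), the coreceptor ENG at 1.18 and 49.99 CPM (42.3-fold lower), and the signal carrier SMAD3 at 44.8 and 9.43 CPM (4.75-fold higher). Among BMP genes, whose median of -0.12 turned positive under TMM factors, the antagonist GREM1 stood at 0.329 and 103 CPM (312-fold lower), the antagonist SOSTDC1 at 71.4 and 0.187 CPM (381-fold higher), and the target ID3 at 2377 and 716 CPM (3.32-fold higher).

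The Notch list had 6 of 12 genes higher and 1 lower (median 0.92). The ligand DLL1 stood at 15.8 CPM in BFRTV8d and 0.919 CPM in BFRTV0d (17.2-fold higher), and LFNG, the glycosyltransferase that tunes Notch for its ligands, at 0.145 and 13.3 CPM (91.6-fold lower). Ephrin, semaphorin and guidance genes had 14 of 25 higher and 5 lower (median 1.58), with EFNA5 at 79.7 and 1.88 CPM (42.4-fold higher) and SEMA7A at 6.21 and 71.3 CPM (11.5-fold lower). Among peptide ligands and their receptors 13 of 22 were higher and 5 lower (median 1.58, but -0.14 within epithelial-marker cells). The endothelins split, with EDN3 at 137 CPM in BFRTV8d and not listed in BFRTV0d (at least 1461-fold higher) and EDN2 at 0.348 and 16.1 CPM (46.2-fold lower), and so did the natriuretic peptides, with NPPC at 243 and 0.179 CPM (1360-fold higher) and NPPB at 1.08 and 12.7 CPM (11.7-fold lower). EDN2 and NPPB stood at 112 and 96.8 CPM in the epithelial-marker cells of BFRTV0d, so their day-0 level was mostly in that minority class. LPAR6, a lysophosphatidic acid receptor, stood at 816 CPM in BFRTV8d and 1.65 CPM in BFRTV0d (494-fold higher).

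Immediate early and cAMP pathway genes had 13 of 31 members higher and 5 lower (median 0.58). The phosphatase DUSP1 stood at 1027 CPM in BFRTV8d and 186 CPM in BFRTV0d (5.51-fold higher), while KLF2 stood at 0.610 and 24.8 CPM (40.7-fold lower) and the phosphodiesterase PDE3A at 2.35 and 34.8 CPM (14.8-fold lower). Of 7 measured reprogramming factors 4 were higher and 2 lower (median 1.74). SOX2 stood at 21.2 and 0.128 CPM (166-fold higher), TFCP2L1 at 66.8 and 0.247 CPM (271-fold higher) and MYC at 279 and 83.5 CPM (3.35-fold higher). SOX2 is also a factor of several epithelia, and its thinned share was 6.43% of BFRTV8d cells and 0.0469% of BFRTV0d cells.

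Cell cycle genes were lower, with 33 of 40 S phase genes and 37 of 48 G2 and mitosis genes at least 2-fold lower (medians -2.67 and -1.59). Within epithelial-marker cells the medians were -1.78 and -1.96, so the mitotic list was also lower there. CCNE2, the cyclin of S phase entry, stood at 0.368 CPM in BFRTV8d and 43.8 CPM in BFRTV0d (119-fold lower), and its transcription factor E2F1 at 0.281 and 20.03 CPM (71.4-fold lower). DUT, which keeps uracil out of DNA, was the S phase gene that was higher, at 1016 and 486 CPM (2.09-fold). Cyclins and inhibitors had 8 of 22 higher and 9 lower (median 0.11, but -0.24 within epithelial-marker cells), with CDK4 and CCND1 at 69.5 and 260 CPM in BFRTV8d, against 267 and 841 CPM in BFRTV0d (3.85-fold and 3.23-fold lower), and CDKN2D, an inhibitor of CDK4, at 37.8 and 5.28 CPM (7.16-fold higher).

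Chromatin regulators varied gene by gene. The histone acetylation, histone methylation and DNA methylation lists had medians of -0.26, -0.22 and -0.19, which turned positive under TMM factors, so no direction is given for them. DNMT1, the maintenance DNA methyltransferase, stood at 28.2 CPM in BFRTV8d and 159 CPM in BFRTV0d (5.63-fold lower), its recruiter UHRF1 at 4.65 and 70.0 CPM (15.04-fold lower) and the oxidising enzyme TET1 at 24.5 and 7.14 CPM (3.43-fold higher). SUV39H1, a histone H3 lysine methyltransferase, stood at 1.78 and 17.3 CPM (9.72-fold lower), and KDM5B, a histone demethylase, at 105 and 35.2 CPM (2.98-fold higher).

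Long noncoding RNA entries were compared as a class. Of 180 measured, 40 (22.2%) passed the 4-fold limit upward and 18 (10.0%) downward, beside 906 (10.0%) higher and 895 (9.93%) lower of 9015 protein-coding genes. LOC102178993 had the highest level of those not listed on day 0, at 295 CPM in BFRTV8d (at least 3154-fold higher), and lies between the CXCL8 and PPBP genes and the EPGN, EREG and AREG genes. LOC108635847, at 26.9 CPM in BFRTV8d and not listed in BFRTV0d (at least 287-fold higher), lies between HOXA3 and HOXA4. LOC108636991, at 25.8 CPM (at least 275-fold higher), lies beside GCNT3, and LOC102173583, at 15.4 CPM (at least 165-fold higher), lies beside GRHL2. Neighbours come from the RefSeq goat assembly ARS1.2 and are the nearest protein-coding or long noncoding genes with a name of their own. Other LOC entries were passed over, and distances were not measured. Since the sources used here do not give how strand was used, reads of these entries and of overlapping genes cannot be told apart.

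Shares of thinned cells with a UMI showed which differences were spread over the population. SPP1 was found in 99.8% of BFRTV8d cells and 23.7% of BFRTV0d cells, and in BFRTV8d it was also found in 97.5% of fibroblast-marker cells, and the part of free RNA in that share was not tested. DHRS3 was found in 97.3% and 0.478% of cells, EHF in 71.6% and 0.890%, and GPX2 in 74.3% and 0.216%, with 26.7% of the fibroblast-marker cells of BFRTV8d. These genes were present in most day-8 cells. TFF3, a mucosal peptide, was found in 9.08% of BFRTV8d cells, with 3.45 UMIs per positive cell, and AGR2, which folds mucins, in 10.5%, against 2.50% and 0.833% of the fibroblast-marker cells. CSN3 was found in 3.50% of BFRTV8d cells and 0 of the 360 fibroblast-marker cells, which allows up to 0.833% of them with a UMI at this depth and sets no limit on cells expressing the gene, PRLR in 3.69% and 0.278%, and ELF5 in 9.53% and 1.11%. CSN3, PRLR, ELF5, TFF3 and AGR2 were thus each found in a minority of thinned cells at this depth, unlike SPP1 and the mucosal gene WFDC2, which was found in 78.7% of BFRTV8d cells and 6.598% of BFRTV0d cells, and unthinned shares were 8.99% for CSN3, 10.5% for PRLR, 23.8% for ELF5 and 18.8% for TFF3. Median depths before thinning were 11779.5 UMIs in the fibroblast-marker and 9006 UMIs in the epithelial-marker cells of BFRTV8d.

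Some genes that were lower in BFRTV8d were found in most BFRTV0d cells. COL1A1 was found in 4.08% of thinned BFRTV8d cells and 95.2% of BFRTV0d cells, WNT5A in 5.04% and 86.0%, and IL11 in 0.670% and 71.9%. In BFRTV8d, COL1A1 was found in 75.6% of fibroblast-marker cells, which it helped to define, and WNT5A in 25.8% of them, whereas IL11 was found in 1.39% of them. IL11 was thus low in both marker classes of BFRTV8d, while COL1A1 remained in cells of the fibroblast class. Others were not, and RRM2, a ribonucleotide reductase subunit of S phase, was found in 0.897% of BFRTV8d cells and 21.9% of BFRTV0d cells.

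**Figure D5:**
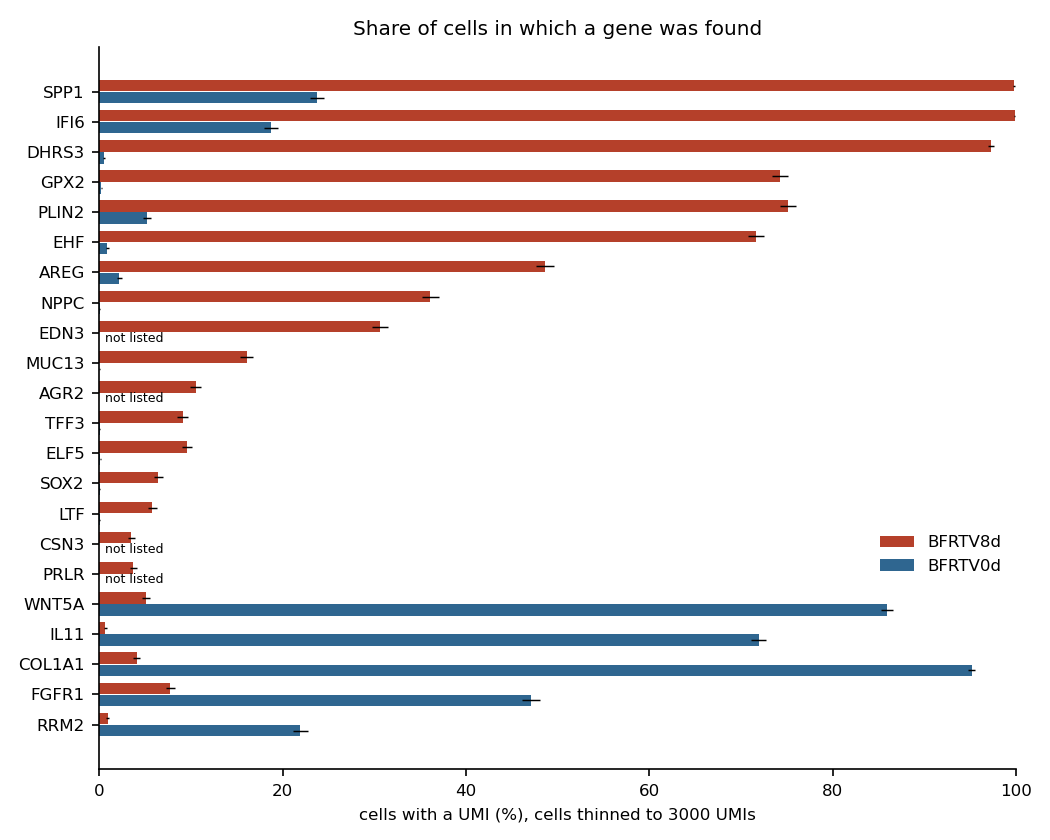
Percent of cells thinned to 3000 UMIs with at least 1 UMI of each gene, in BFRTV8d (red) and BFRTV0d (blue), with 95% exact counting intervals. SPP1, IFI6 and DHRS3 were found in over 97% of BFRTV8d cells, and TFF3, CSN3 and PRLR in under 10%.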

How the data were processed

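Droplet libraries came from version 2 of the 10x 3′ single-cell chemistry. Per the labels and the tables, the authors deposited 1 table per group of whole-number UMI counts per gene and barcode, with no normalization, and 3 of these tables (days 0, 4 and 8) were used. FastQC 0.10.1 and Cell Ranger (no version) are named in the submitters' processing notes; genome build, annotation and strand handling: not given in the sources used here. The tables list only genes found in at least 11 cells, so genes missing from 1 table were given 11 counts there, and genes listed at 0 were given 3. Folds that rest on such a floor are written as "at least". The limit of 11 is of cells and not of UMIs. Genes listed in exactly 11 cells summed to up to 27 UMIs in BFRTV0d and 23 in BFRTV8d, so these folds are not strict lower limits. With those higher sums as floors the 4-fold counts stayed at 957 and 914.

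For each gene the UMIs of all barcodes were added up and divided by the table total (CPM), which ranks genes within a table without a length correction. Genes with at least 10 CPM in 1 table were compared, and fold intervals are exact conditional binomial. Python 3.11.15, numpy 2.4.6, scipy 1.17.1, pandas 2.3.3 and matplotlib 3.10.9 were used, with edgeR 4.0.16 and DESeq2 1.42.0 under R 4.3.3 for alternative scaling factors only. Barcodes were thinned to 3000 UMIs with a fixed seed, which left out 8 barcodes of BFRTV8d and 0 of BFRTV0d. The code of the comparison was checked on simulated counts with set folds. These held counting error only, with no variation between cells or samples, so they do not bear on the folds found here. The groups, 89 gene lists (2222 entries), marker genes and rule were chosen with earlier results of these data known. The rule named the 20 largest gains and losses of CPM, the 15 highest and lowest folds among named genes with at least 50 CPM, and from each list up to 4 members of largest fold, those at least 2-fold against its median and its highest member. The noncoding entries have the largest folds of their class, and KRT8, KRT18, LAMA3, LAMB3, RRM2, ISG15, MX1, IGF1 and the other cell type markers fall outside that rule and were chosen after their values were seen. Gene names were matched to the RefSeq table of ARS1.2 (15645 of 16015 rows). No sequences or coordinates are printed. Mitochondrially encoded genes and complexes III and IV were not analysed here. The totals behind CPM include no rows with symbols of mitochondrially encoded or ribosomal protein (RPL, RPS) genes. A few genes that the rule named are not reported here.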

Additional observations from a re-analysis of the deposited data

How the results depend on the processing

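Neither table has a replicate, so no sample could be left out in turn, and the values below have no test. No paired analysis was possible because the tables are pooled and the cells carry no sample number. With a minimum of 1 CPM, 1781 genes were at least 4-fold higher and 1388 lower, and with a minimum of 50 CPM 402 and 436, because more or fewer genes were compared. Only epithelial-marker cells gave 448 lower genes. The counts were 1129 and 740 with TMM factors, 1139 and 734 with median-of-ratios factors, 1022 and 954 after thinning, 1028 and 955 without the deepest 5% of barcodes, and 906 and 858 with the counting interval wholly beyond 4-fold. Within epithelial-marker cells 27 list medians changed sign, 6 of them with a median log2 of at least 1 in size over all barcodes. Hemidesmosome turned to -0.65, cytokines and chemokines to -0.19, peptide ligands and their receptors to -0.14 and keratinocyte and skin appendage markers to -0.36. Keratins turned to -0.18 and basal and myoepithelial markers to -0.50, but the genes that picked the cells were left out of these medians. The keratin median was over 3 members there and 9 over all barcodes, and the basal and myoepithelial median over 6 and 12. These 2 changes are therefore not of the same set of genes. The cause of the changes of sign was not tested. COL17A1, ITGA6 and ITGB4 turned to log2 folds of -0.48, -0.51 and -0.79 there, KRT6A to -0.36, and TBX3 and VEGFA to 1.14 and 0.19. With a minimum of 50 CPM the median log2 of FGF ligands and receptors was -3.65, and the median log2 of markers: Schwann cell and melanocyte was -4.36, because fewer members were compared. A search of promoters for motifs was not run.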
